A study of Mus musculus with 10 samples.

Results

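Genes for pattern recognition and scavenger receptors of macrophages were examined for p65 binding. The set held 8 genes of 21887 protein-coding mouse genes: Clec4n, Clec4d, Clec4e and Clec7a, which encode C-type lectin receptors, Marco, Msr1 and Cd36, which encode scavenger receptors, and Olr1, whose product belongs to both families. They were chosen by name, with earlier results of these data known. A peak was assigned to a gene when it overlapped the gene body extended by 10 kb on each side (mouse assembly GRCm38). RAW264.7 cells, a wild-type macrophage-like mouse line from a male tumour induced by Abelson murine leukemia virus, received DMSO (the solvent), DMSO plus lipopolysaccharide (LPS, a bacterial surface molecule that activates macrophages) or LPS plus skatole (LPS+Skatole), each over 12 h. Skatole is a microbial product of tryptophan. The labels name LPS+Skatole without DMSO, so the solvent of that group cannot be compared. Binding was mapped by CUT&Tag, in which an antibody guides a transposase to a chromatin protein and the released DNA is sequenced. There were 3 libraries of 200000 cells in each group, all from a single cell line, and the labels do not say whether they came from separate cultures, so p-values cover only the spread between these libraries. The labels name a p65 antibody, whereas the methods name one against phosphorylated p65. A Blank sample without primary antibody was not analysed here, and no value is corrected for signal without antibody.

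C-type lectin receptors on myeloid cells bind sugars and lipids of fungi and bacteria. They signal through the kinase Syk and the adaptor Card9 to NF-κB, the transcription factor of which p65 is a subunit. Dectin-2 (Clec4n), MCL (Clec4d) and Mincle (Clec4e) pair with the Fc receptor γ chain, encoded by Fcer1g, while Dectin-1 (Clec7a) carries its own signalling motif. Scavenger receptors take up modified lipoproteins, microbes and cell debris, and Marco is known as a gene that macrophages induce after contact with bacterial products.

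The sequence before the start site is shown for 4 of the 6 members found in the RefSeq promoter table (GRCm38.p6): Olr1, the only one of the 6 with the AP-1 letters, Marco, the only one with a κB-like site, and Clec4e and Clec7a as examples of start sites under a p65 region with none of the searched letters, which was also the case for Clec4d. Each run covers the 250 bases before the start site, 5′ to 3′ on the gene's strand, and capitals mark a motif match.
Olr1, chr6:129507166-129507415, strand -: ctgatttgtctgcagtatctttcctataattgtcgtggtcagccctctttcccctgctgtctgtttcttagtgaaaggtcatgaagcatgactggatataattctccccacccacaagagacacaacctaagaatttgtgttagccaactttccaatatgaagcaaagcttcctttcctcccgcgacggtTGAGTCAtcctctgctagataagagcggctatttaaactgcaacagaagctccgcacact
Marco, chr1:120505025-120505274, strand -: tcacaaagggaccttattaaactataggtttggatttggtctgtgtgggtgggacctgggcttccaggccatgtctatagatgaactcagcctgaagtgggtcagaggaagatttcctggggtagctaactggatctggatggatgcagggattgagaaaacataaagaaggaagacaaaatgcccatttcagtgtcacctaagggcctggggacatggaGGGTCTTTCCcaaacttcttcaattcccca
Clec4e, chr6:123289872-123290121, strand -: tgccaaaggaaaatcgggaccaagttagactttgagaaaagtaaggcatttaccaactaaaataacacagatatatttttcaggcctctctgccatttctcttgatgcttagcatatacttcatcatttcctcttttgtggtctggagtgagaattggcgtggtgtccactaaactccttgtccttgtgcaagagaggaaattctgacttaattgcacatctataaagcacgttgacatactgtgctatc
Clec7a, chr6:129472780-129473029, strand -: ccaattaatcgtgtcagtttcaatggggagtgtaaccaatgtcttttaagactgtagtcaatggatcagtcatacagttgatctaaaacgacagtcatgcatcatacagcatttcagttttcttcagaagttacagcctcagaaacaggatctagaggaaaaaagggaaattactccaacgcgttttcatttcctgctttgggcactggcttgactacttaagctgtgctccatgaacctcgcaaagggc
Both strands were searched for the κB motif in a broad form (GG, a purine, 2 of any base, 3 pyrimidines, CC), for AP-1 (TGANTCA) and for the core of PU.1 (GAGGAAGT), and no match overlapped another. The AP-1 letters in Olr1, TGAGTCA, lay 60 bases before the start site, and the κB-like site in Marco lay 30 bases before it. Of 32851 promoters in the table, 16.8% held the κB motif, 6.75% AP-1 and 2.44% PU.1 in the same window. The Clec4d and Cd36 windows held no match. Clec4n and Msr1 were not in the table. A match is a string of letters and no evidence of binding, and its absence covers only this window.

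The peak lists differed in length and depth between groups, which bears on every value below. They held 37551 to 43450 peaks with DMSO, 55637 to 63498 with LPS and 78136 to 80153 with LPS+Skatole. The lists give no reads, so depth was read from the lowest background in each list, in fragments: 1.09 to 1.40 with DMSO, 2.23 to 2.34 with LPS, 2.26 to 2.39 with LPS+Skatole. The lowest summit in a list stood at 6.44 to 7.34 times this genome background with DMSO, but at 4.69 to 4.94 times with LPS and 4.59 to 4.87 times with LPS+Skatole. Peak number and presence therefore carry depth with them, and the share of each difference that comes from depth was not tested. The cell type was compared with fixed marker genes: 8 of 8 macrophage markers had a peak in all 9 libraries, against 2 of 4 T cell, 1 of 4 B cell, 0 of 3 fibroblast and 0 of 2 hepatocyte markers. Over all 21887 protein-coding genes, 54.2% had a peak in all 9 libraries. The mean number of peaks per library was 5.40 for macrophage, 2.39 for T cell and 2.00 for B cell markers. For fibroblast and hepatocyte markers it was 0.741 and 0.222. Single genes overlapped between cell types, with 4.22 at the B cell marker Cd79a and 4.00 at the T cell marker Cd3g, against 2.33 at the macrophage marker Adgre1. A peak near a gene is no measure of its expression.

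All 8 genes had a p65 peak in at least 1 library, beside 19505 of all 21887 protein-coding genes. A peak in every library was found for 6 of them (75%), beside 11870 of the 21887 (54.2%). Clec4e lacked a peak in DMSO library 2, and Marco had none in any DMSO library. Together the windows held 28, 26 and 26 peaks with DMSO, 38, 44 and 42 with LPS and 44, 48 and 42 with LPS+Skatole, or 338 in all. The LPS libraries did not overlap the DMSO libraries, whereas the LPS and LPS+Skatole libraries did overlap. The group means were 26.7 ± 1.15, 41.3 ± 3.06 and 44.7 ± 3.06 (SD, n = 3 each). Per 10000 peaks of the list, which sets aside its length, they were 6.60 ± 0.767 with DMSO, 7.01 ± 0.502 with LPS and 5.66 ± 0.455 with LPS+Skatole (SD, n = 3 each). On that scale LPS (6.83, 7.57 and 6.61) overlapped DMSO (7.46, 5.98 and 6.35), and every LPS+Skatole library (5.59, 6.14 and 5.24) was below every LPS library.

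By gene, the peak number of Clec4d and Msr1 was higher in every LPS library than in any DMSO library, and that of Clec4e and Cd36 in every LPS+Skatole library than in any DMSO library. These are 2 of 8 members in each comparison, beside 13.1% of all genes with a peak for LPS above DMSO and 26% for LPS+Skatole above DMSO. No member separated LPS+Skatole from LPS upward, beside 9.27% of genes. Downward, no member separated the groups, beside 0.39% of genes for LPS below DMSO, 0.789% for LPS+Skatole below LPS and 0.178% for LPS+Skatole below DMSO. With 3 libraries against 3, the exact two-sided permutation test cannot go below p = 0.1. In the joint exact permutation test over all 280 divisions into groups of 3, 3 members had p under 0.05 (Msr1 0.0321, Cd36 0.0357 and Clec4e 0.0429), beside 15.8% of 19505 genes. After Benjamini-Hochberg adjustment over all 19505 genes, the smallest adjusted p of a member was 0.259, and 0 genes passed 0.05. Some peaks lie in the windows of 2 members. Without shared regions outside a gene's own body, an alternative chosen after the data were seen, Clec4d had 2, 2 and 4 peaks with DMSO, 5, 4 and 5 with LPS and 3, 3 and 2 with LPS+Skatole, and Clec4e had 1, 0 and 1, then 1 in each LPS library, then 2, 2 and 1. LPS was then above DMSO for Msr1 alone, LPS+Skatole above DMSO for Cd36 alone, and LPS+Skatole below LPS for Clec4d. With all lists cut to the same length, 0 members had a joint p under 0.05, and the separation remained for Clec4d alone (LPS above DMSO). Msr1 then lay lower in every LPS+Skatole library than in any LPS or DMSO library. Leaving out 1 library gave 0 members with a joint p under 0.05 without LPS replicate 2 or LPS+Skatole replicate 1, and 1 without DMSO replicate 2 or 3, LPS replicate 1 or 3 or LPS+Skatole replicate 2. Without DMSO replicate 2, 4 members had more peaks with LPS+Skatole than DMSO. More than LPS had 2 (Cd36 and Clec4e) without LPS+Skatole replicate 3 and 1 without LPS replicate 1 or 3, and Msr1 had fewer without LPS replicate 3 or LPS+Skatole replicate 2. The shares above are for all libraries and full lists with shared regions included, and do not apply to these alternatives.

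**Figure D1:**
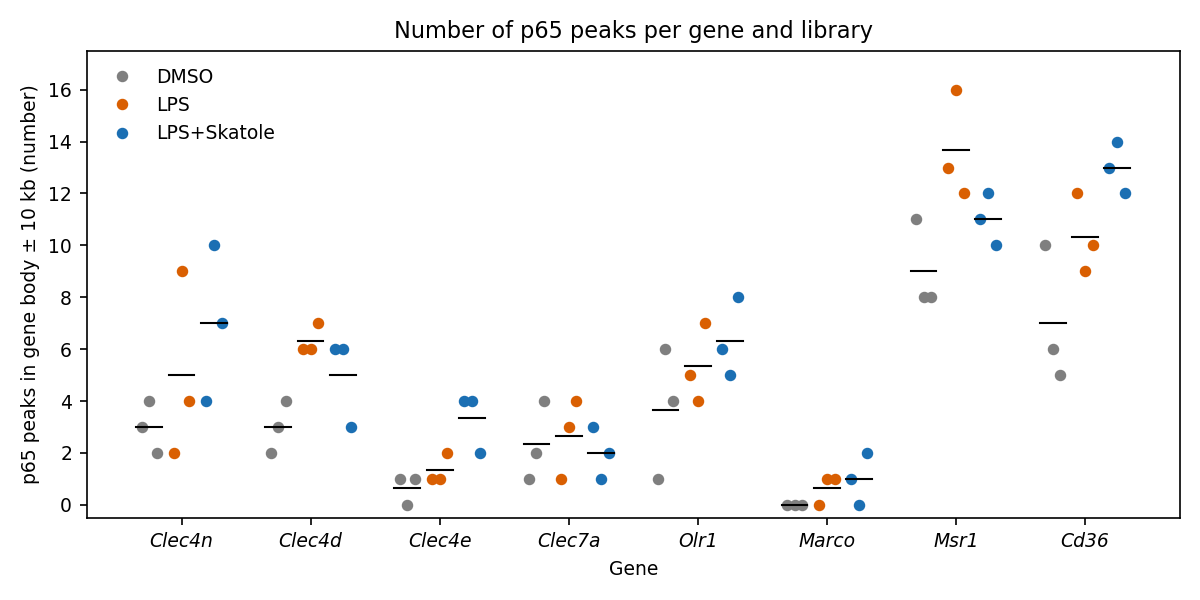
Number of p65 peaks in the gene body ± 10 kb (vertical axis) for each of the 8 genes. Each point is 1 library, colours give the group and black lines the mean of 3 libraries. Msr1 and Cd36, which have the longest windows, carried the most peaks, up to 16 and 14 in a library, and Marco had 0 in all DMSO libraries.

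Peak strength was compared as a rank within each list, the percentile of a gene's strongest peak by −log10 p, with 100 for the strongest peak of the list. Of 8 members, 6 had such a value in all 9 libraries. The strongest peaks of Clec4n, Clec4d, Msr1 and Cd36 ranked higher in every LPS library than in any DMSO library, and those of Clec4n and Clec4d ranked higher again in every LPS+Skatole library than in any LPS library. That is 4 members for LPS above DMSO beside 20% of 11870 genes, 2 for LPS+Skatole above LPS beside 14.6%, and 4 for LPS+Skatole above DMSO (Clec4n, Clec4d, Msr1 and Cd36) beside 31.6%. The median difference over all 11870 genes was 2.22 percentile points for LPS minus DMSO, 1.01 for LPS+Skatole minus LPS and 3.73 for LPS+Skatole minus DMSO. In the joint exact permutation test, Clec4n and Clec4d both reached 0.00357, the smallest p it can give, followed by Cd36 (0.0107) and Msr1 (0.0143), so 4 members had p under 0.05, beside 19.9% of genes. Adjusted over the 11870 genes, the p-values were 0.110 for Clec4n and Clec4d, 0.146 for Cd36 and 0.158 for Msr1, and 0 genes passed 0.05. The Clec4n call for LPS above DMSO rests on a region between Clec4n and Clec4d that both windows share. Without shared regions outside a gene's own body, Clec4n ranked at percentile 41.7, 72.5 and 51.5 with DMSO, 38.6, 85.1 and 77.0 with LPS and 94.4, 88.3 and 91.6 with LPS+Skatole. DMSO and LPS then overlapped (joint exact permutation p = 0.0714), LPS+Skatole stayed above both, and 3 members were left for LPS above DMSO. Cut to equal length, the lists kept the separation of LPS from DMSO for Clec4d only, and likewise that from LPS to LPS+Skatole. For LPS minus DMSO, the mean difference went from 27.8 to 20.9 points for Clec4n and from 27.4 to 20.7 for Clec4d. It went from 17.0 to 13.4 for Cd36 and from 6.67 to 4.83 for Msr1. For LPS+Skatole minus LPS, it went from 8.35 to 8.75 for Clec4n and from 12.8 to 17.8 for Clec4d. Against DMSO, LPS+Skatole then ranked higher for 3 members (Clec4n, Clec4d and Cd36). The differences of Msr1 and Olr1 changed sign, to -0.495 and -5.61 points. That of Olr1 also changed sign for LPS minus DMSO, from 0.596 to -11.5 points. Clec7a then ranked below DMSO without overlap in both other groups, and Olr1 did so with LPS. The shares above are for full lists with shared regions included.

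Clec4n and Clec4d, neighbours on chromosome 6 with Clec4e beside them, carried the regions with the largest height difference between LPS+Skatole and LPS among the 9 member regions tested. The Clec4d gene (chr6:123262107-123275268) had 2, 3 and 4 peaks with DMSO, 6, 6 and 7 with LPS and 6, 6 and 3 with LPS+Skatole (joint exact permutation p = 0.0786). The last LPS+Skatole library held fewer peaks than the LPS libraries, and there a single peak covered the same stretch that held 2 to 5 peaks in the other 8 libraries. This stretch, chr6:123259465-123268742, covers the Clec4d start site and the first part of the gene. Its height, the recovered fragment count at the tallest summit divided by the genome background, was 36.7, 44.3 and 42.7 with DMSO. It was 37.9, 46.7 and 43.5 with LPS and 76.9, 57.9 and 93.5 with LPS+Skatole. The LPS and DMSO libraries overlapped, and every LPS+Skatole library lay above them.

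The tallest summit of this region lay inside Clec4d, 4015 to 4671 bp downstream of the start site in all 9 libraries. Its median position was 4059 bp in DMSO, 4183 bp in LPS and 4254 bp in LPS+Skatole. Smaller summits stood near the start site. The strongest peak of the Clec4d window ranked at percentile 50.1, 61.3 and 53.8 with DMSO, 83.9, 83.4 and 80.2 with LPS and 93.4, 96.1 and 96.3 with LPS+Skatole. The 3 groups did not overlap. With LPS these ranks came from another region, shared with Clec4n and described below. The strongest peak of the start-site region itself ranked at 74.4, 81.9 and 76.5 with LPS, and the groups again did not overlap. That peak was not the tallest one in any DMSO library, and its local background, against which the rank is counted, was 1.25 to 11.9 times the genome background. The tallest peak, which gives the height, had a local background of 11.4 to 25.6 times the genome background. With DMSO this tallest peak ranked at percentile 33.3, 14.9 and 1.62.

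In the limma fit over the 13824 regions called in all 9 libraries, the Clec4d region was higher in LPS+Skatole than in DMSO by 0.86 on the log2 scale (SE 0.22, adjusted p = 0.0108). With the deposited fold in place of height, this call was lost (1.09, adjusted p = 0.149). Against LPS it was higher by 0.81 (SE 0.22), with an adjusted p of 0.0507, which passed when any 1 DMSO library was left out (adjusted p from 0.0406 to 0.0468). Between LPS and DMSO the difference was 0.05 (SE 0.22, adjusted p = 0.910). The median of all 13824 regions was itself shifted by 0.24 for LPS+Skatole minus LPS and by -0.24 for LPS minus DMSO. With libraries scaled to the same median, the difference between LPS+Skatole and LPS was 0.53 with an adjusted p of 0.343. The call against DMSO was lost without LPS+Skatole replicate 3 (0.70, adjusted p = 0.0892).

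Clec4n (chr6:123229843-123247024) had 3, 4 and 2 peaks with DMSO, 2, 9 and 4 with LPS and 4, 10 and 7 with LPS+Skatole, and the groups overlapped (joint exact permutation p = 0.329). Its main region, chr6:123226533-123230476, overlaps the lower-coordinate end of the gene, and in 8 of 9 libraries the tallest summit lay 1916 to 2211 bp outside that end. Height there was 11.9, 15.7 and 12.5 with DMSO, 7.84, 19.8 and 14.9 with LPS and 34.6, 24.8 and 28.4 with LPS+Skatole. The LPS libraries spread around the DMSO libraries, while all LPS+Skatole libraries were above both groups. The region was higher in LPS+Skatole than in DMSO by 1.12 on the log2 scale (SE 0.33, limma adjusted p = 0.0321). Against LPS the difference was 1.13 (SE 0.33, limma adjusted p = 0.0718), and 0.85 after scaling to the same median (adjusted p = 0.313). The call against DMSO was lost when DMSO replicate 1 or 3 or any LPS+Skatole replicate was left out (adjusted p from 0.0504 to 0.121).

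A further region between Clec4n and Clec4d, chr6:123253671-123254553, lay 6647 bp beyond Clec4n and fell in the windows of both genes. It was called in 1 DMSO library at a height of 10.0, from 14 fragments. With LPS its height was 22.7, 22.0 and 19.6, and with LPS+Skatole 19.7, 22.1 and 23.4. LPS and LPS+Skatole thus overlapped here, with means of 21.4 ± 1.60 and 21.7 ± 1.89 (SD, n = 3 each). The summits of the 7 libraries lay within 270 bp. Because both windows share this region, the top percentile of Clec4n equals that of Clec4d in LPS libraries 1 and 3. Within Clec4n, chr6:123243920-123245237 was called in 2 libraries with DMSO, 1 with LPS and 3 with LPS+Skatole, with heights of 8.26 to 17.9 that showed no order between groups.

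Clec4e (chr6:123281789-123289871) had 1, 0 and 1 peaks with DMSO, 1, 1 and 2 with LPS and 4, 4 and 2 with LPS+Skatole (joint exact permutation p = 0.0429). The LPS+Skatole libraries lay above DMSO and overlapped LPS at 2 peaks. The region at its start site, chr6:123288890-123290958, whose upstream sequence is printed above, was called in 1 library with DMSO, 3 with LPS and 3 with LPS+Skatole. Its tallest summit lay from 465 bp before to 309 bp after the start site. Height was 26.6 in the DMSO library, 39.7, 37.7 and 29.9 with LPS and 45.7, 34.9 and 54.3 with LPS+Skatole. The local background at this site was high, 5.22 to 21.0 times the genome background. In the DMSO library with a call it was 10.3 times, and that peak ranked at percentile 1.73. The missing call in the other DMSO libraries therefore does not show a lack of binding.

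**Figure D2:**
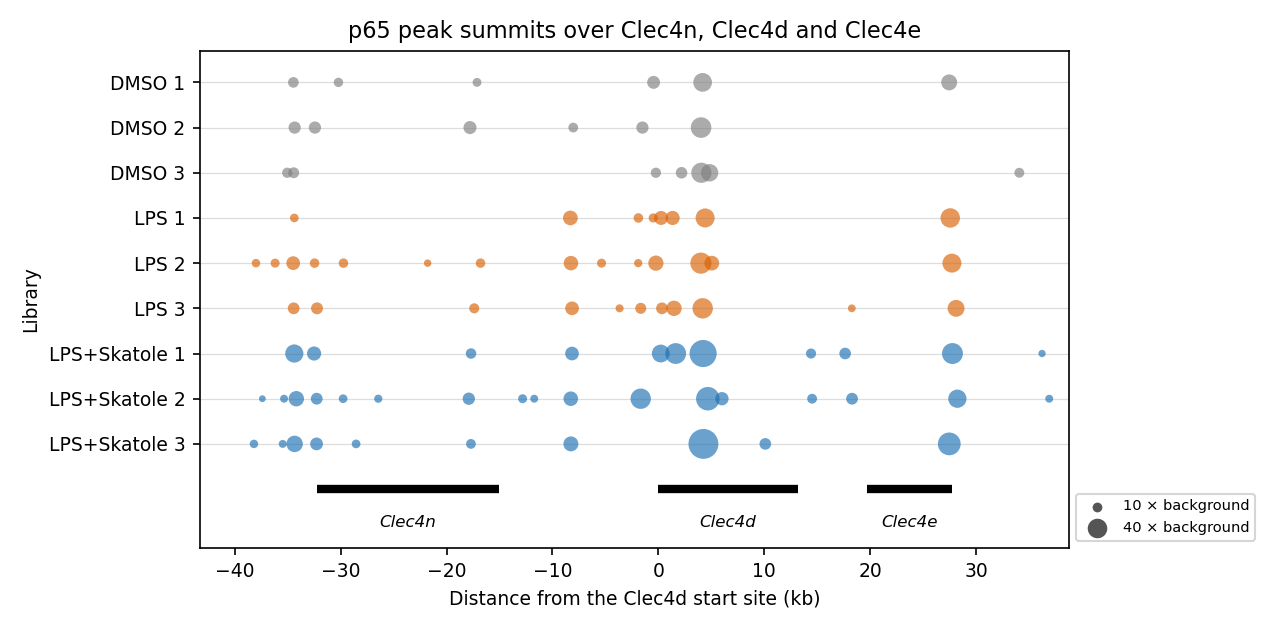
Summits of p65 peaks over Clec4n, Clec4d and Clec4e, by distance from the Clec4d start site in kb (horizontal axis) and library (vertical axis). Each point is a peak, its area is proportional to height, and black bars are gene bodies. Large summits recur 4015 to 4671 bp inside Clec4d in all 9 libraries, and summits at the Clec4e start site appear in 1 DMSO library and in all LPS and LPS+Skatole libraries.

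Clec7a encodes Dectin-1, the receptor for β-glucans of fungal walls, and its peak numbers overlapped between all groups. Clec7a (chr6:129461591-129472785) had 1, 2 and 4 peaks with DMSO, 1, 3 and 4 with LPS and 3, 1 and 2 with LPS+Skatole (joint exact permutation p = 0.957). The region at its start site, chr6:129470227-129473562, was called in all 9 libraries, and its strongest peak was the strongest of the gene in each. Height was 20.2, 21.5 and 19.1 with DMSO, 16.1, 12.6 and 13.7 with LPS and 11.1, 16.8 and 15.0 with LPS+Skatole. The DMSO libraries lay above all others. In the limma fit, however, the difference from DMSO was -0.53 for LPS (SE 0.31, adjusted p = 0.306) and -0.52 for LPS+Skatole (SE 0.31, adjusted p = 0.333), and it did not pass. Between LPS+Skatole and LPS it was 0.01 (SE 0.31, adjusted p = 0.993), which leaves room for a difference in either direction. The percentile of the gene was 72.4, 78.9 and 73.2 with DMSO, 79.0, 69.3 and 73.9 with LPS and 62.1, 77.9 and 75.8 with LPS+Skatole, and the groups overlapped (joint exact permutation p = 0.896). With lists of equal length, all DMSO libraries ranked above the others, with mean differences of -13.9 points for LPS minus DMSO and -31.9 for LPS+Skatole minus DMSO for this gene.

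Olr1 (chr6:129479150-129507350), for the oxidised-LDL receptor LOX-1, lies next to Clec7a, and its window includes the Clec7a start-site region. It had 1, 6 and 4 peaks with DMSO, 5, 4 and 7 with LPS and 6, 5 and 8 with LPS+Skatole (joint exact permutation p = 0.336). The groups overlapped. At the Olr1 start site itself, chr6:129506751-129507719, where the printed AP-1 letters lie, a region was called in 0 libraries with DMSO, 2 with LPS and 3 with LPS+Skatole. DMSO library 3 had a separate peak just upstream of it, chr6:129507764-129508004, with its summit 719 bp before the start site and a height of 7.36 from 10 fragments. Height was 7.41 and 5.55 in LPS libraries 1 and 3, from 17 and 13 fragments, and 23.1, 11.5 and 13.8 with LPS+Skatole, from 54, 26 and 33 fragments. The lower LPS value is under the 6.44 to 7.34 that a DMSO list required and the other just above it, so a difference between LPS and DMSO was not detectable here at this depth. All LPS+Skatole values lay above the LPS values. With LPS+Skatole the tallest summit lay within 55 bp of the start site.

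A second Olr1 region, chr6:129497322-129498430, lay inside the gene and was called in 1 DMSO library (height 13.6), 0 LPS libraries and all LPS+Skatole libraries (9.40, 16.4 and 23.8). Its summits were 9024 to 9549 bp downstream of the start site. Another, chr6:129494142-129496060, was called in 2 libraries with DMSO, 2 with LPS and 1 with LPS+Skatole at heights of 8.72 to 15.7. A last one, chr6:129513303-129515443, lay 5953 bp beyond the gene body in the direction of the neighbouring gene Tmem52b and was called in 1 library with DMSO, 3 with LPS and 3 with LPS+Skatole. Its height was 12.2 in the DMSO library, 12.2, 10.8 and 15.4 with LPS and 13.2, 14.2 and 23.4 with LPS+Skatole, so the groups overlapped. The top percentile of the Olr1 window was that of the shared Clec7a region in 6 of 9 libraries and gave no separation of groups (joint exact permutation p = 0.161). With lists of equal length, every LPS library ranked below every DMSO library for Olr1, with a mean difference of -11.5 points. The mean difference of LPS+Skatole minus DMSO then turned from 9.58 to -5.61 points.

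Among the scavenger receptors, Marco (chr1:120474538-120505024), a collagen-like receptor for bacteria and particles, had the fewest peaks. It had 0 peaks in all DMSO libraries, 0, 1 and 1 with LPS and 1, 0 and 2 with LPS+Skatole (joint exact permutation p = 0.357). The 5 peaks lay at 5 separate places, each called in a single library. Their heights were 4.69 to 7.69 and their percentiles 1.93 to 37.8. The peak nearest to the κB-like site was called in LPS+Skatole library 3 with its summit 875 bp before the start site, and no peak covered the printed sequence. At this depth, binding at Marco was not detected in more than 1 library at any site.

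Msr1, for the class A receptor of modified lipoproteins, and Cd36, for the class B receptor of oxidised lipids and fatty acids, held the most peaks, in the longest windows (120 and 127 kb, against 28.1 to 50.5 kb for the others). Per 10 kb of window, they held 0.939 and 0.794 peaks on average over the 9 libraries, against 1.44 for Clec4d, 1.34 for Clec4n and 1.06 for Olr1 above them and 0.748 for Clec7a, 0.633 for Clec4e and 0.110 for Marco below. Msr1 (chr8:39543232-39642750) had 11, 8 and 8 peaks with DMSO, 13, 16 and 12 with LPS and 11, 12 and 10 with LPS+Skatole (joint exact permutation p = 0.0321). The LPS libraries were above every DMSO library, and LPS+Skatole overlapped both groups. Counting only summits of at least 8 times the genome background, a height that every list could hold, the difference in mean number between LPS and DMSO fell from 4.67 to 0.667, and that between LPS+Skatole and DMSO from 2 to 0. This alternative was chosen after the data were seen. 

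The gene had 4 regions called in all 9 libraries, the most of any member. One lay inside the gene (chr8:39618229-39621203) and 3 lay beyond its higher-coordinate end (chr8:39642940-39645026, chr8:39649336-39650959 and chr8:39651455-39652878), with the tallest summits at 490 to 1760, 7131 to 8059 and 9097 to 9424 bp from that end. The region nearest to that end had heights of 45.0, 49.3 and 41.2 with DMSO, 31.4, 41.3 and 37.1 with LPS and 44.9, 40.3 and 44.7 with LPS+Skatole. The groups overlapped there. At chr8:39649336-39650959, height was 16.5, 11.4 and 18.4 with DMSO, 29.2, 19.3 and 22.6 with LPS and 20.9, 31.4 and 38.4 with LPS+Skatole. All LPS and LPS+Skatole libraries were above DMSO at this region, but the limma difference did not pass, at 0.63 for LPS minus DMSO (SE 0.31, adjusted p = 0.218) and 0.95 for LPS+Skatole minus DMSO (SE 0.31, adjusted p = 0.0522). The second of these passed without LPS+Skatole replicate 1 (adjusted p = 0.0299). For the region inside the gene, the log2 difference was -0.27 for LPS minus DMSO and -0.05 for LPS+Skatole minus DMSO (SE 0.26 for both). The farthest region, chr8:39651455-39652878, had heights of 34.0, 35.0 and 24.3 with DMSO, 50.6, 44.0 and 32.0 with LPS and 29.9, 44.2 and 37.2 with LPS+Skatole, and the groups overlapped. Its log2 difference was 0.43 for LPS minus DMSO (SE 0.26, limma adjusted p = 0.306) and -0.18 for LPS+Skatole minus LPS (SE 0.26, adjusted p = 0.737). Scaled to the same median, the latter was -0.46 (adjusted p = 0.539), and the estimates for LPS+Skatole minus LPS were also below 0 at Clec7a (-0.27) and at the Msr1 regions inside the gene (-0.06) and nearest to its end (-0.03).

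At chr8:39608254-39609466, inside Msr1, a region was called in all LPS libraries at heights of 8.72, 11.7 and 8.53, from 20 to 26 fragments, and in no DMSO or LPS+Skatole library. LPS+Skatole library 3 had a separate peak beside it, chr8:39607593-39608104, at a height of 5.01 from 12 fragments. The LPS region was the only member region present in all LPS and absent from all LPS+Skatole libraries. Its heights exceed the lowest summits of all lists, 4.59 to 7.34. The lowest summit of a list does not show that every site of such a height was called, and the part of depth was not tested. Regions chr8:39635183-39636603 and chr8:39594246-39596187 were called in 8 and 6 libraries at heights of 8.96 to 16.5 and 7.08 to 16.9. The top percentile of Msr1 was 91.8, 92.2 and 82.3 with DMSO, 97.3, 95.9 and 93.1 with LPS and 94.4, 94.6 and 92.9 with LPS+Skatole. Every LPS and LPS+Skatole library ranked above every DMSO library. These ranks come from different regions, chr8:39618229-39621203 in all DMSO libraries and chr8:39651455-39652878 in LPS libraries 1 and 2. Within the first alone, the ranks were 91.8, 92.2 and 82.3 with DMSO, 88.6, 93.9 and 93.1 with LPS and 94.4, 93.3 and 92.1 with LPS+Skatole, and the groups overlapped. Within chr8:39651455-39652878, they were 83.1, 86.0 and 72.3 with DMSO, 97.3, 95.9 and 91.0 with LPS and 87.5, 94.6 and 92.2 with LPS+Skatole, so every LPS and LPS+Skatole library was above DMSO. Every LPS and LPS+Skatole library also ranked above DMSO within chr8:39649336-39650959. With lists of equal length the mean rank difference of Msr1 between LPS+Skatole and DMSO turned to -0.495 percentile points.

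**Figure D3:**
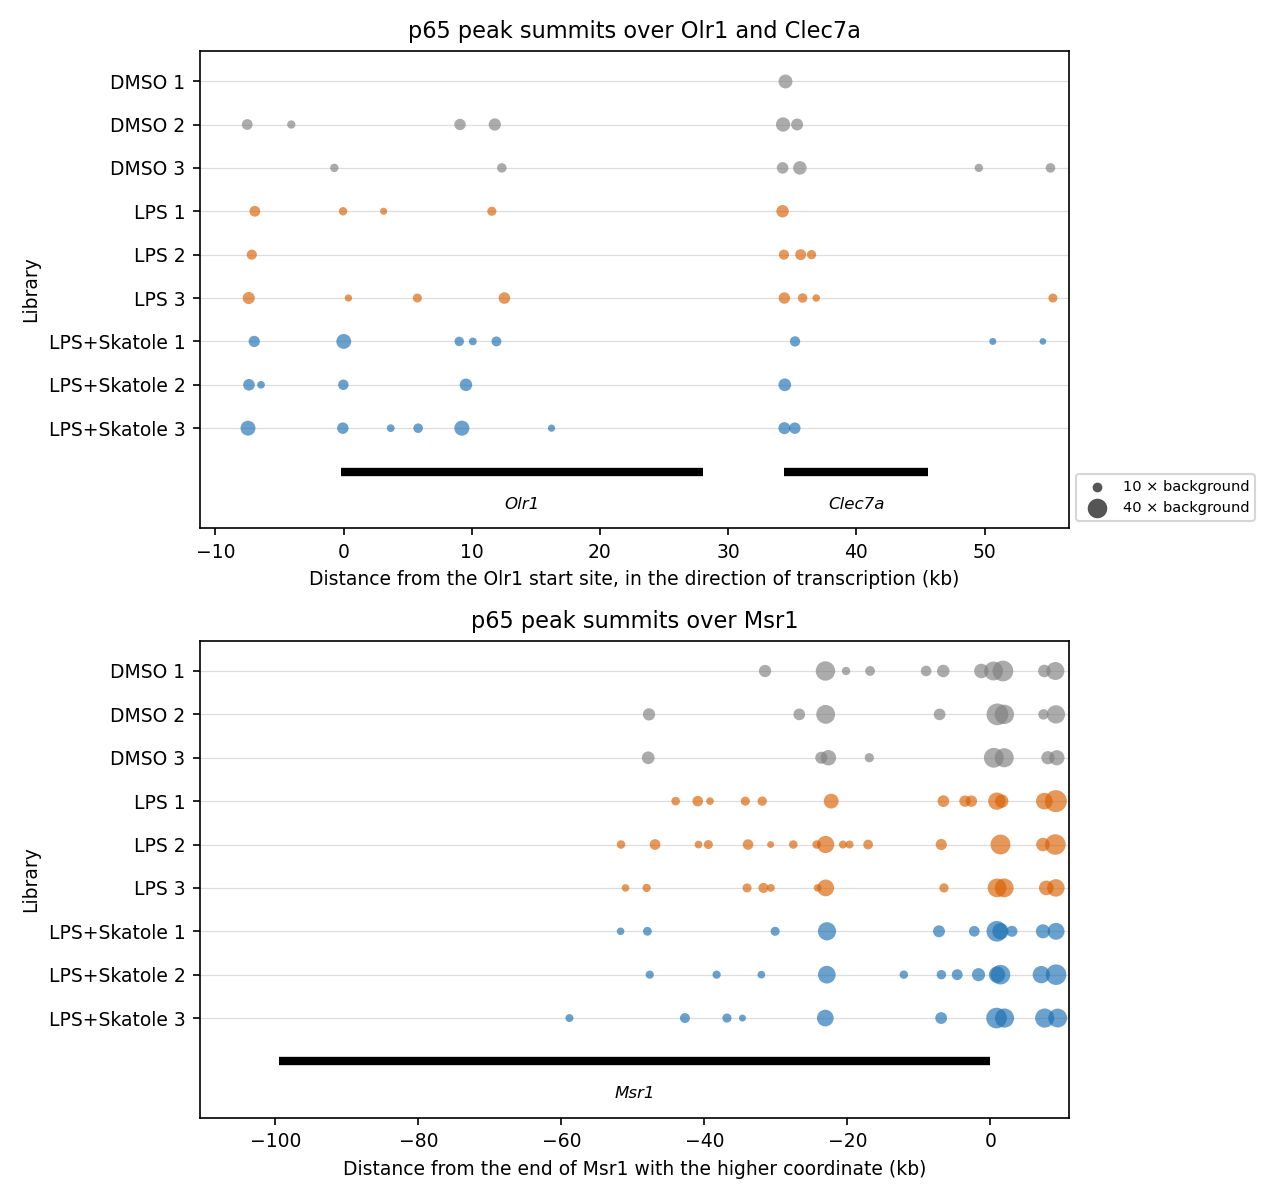
Summits of p65 peaks over Olr1 and Clec7a (upper panel) and Msr1 (lower panel), by distance in kb from the Olr1 start site or the higher-coordinate end of Msr1 and by library. Points are peaks with area proportional to height, and black bars are gene bodies. Summits at the Olr1 start site appear in 2 libraries with LPS and 3 with LPS+Skatole, with 0 in the DMSO group, and the 3 regions beyond the end of Msr1 in all 9 libraries.

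Cd36 (chr5:17781690-17888959) had 10, 6 and 5 peaks with DMSO, 12, 9 and 10 with LPS and 13, 14 and 12 with LPS+Skatole (joint exact permutation p = 0.0357). LPS overlapped both other groups, and every LPS+Skatole library was above every DMSO library. The named regions of the gene all lay upstream of the start site listed in the promoter table, in the first part of the annotated gene body. Its first region called in all 9 libraries, chr5:17840651-17843769, had its tallest summit 6056 to 6910 bp before the listed start site. Height was 17.4, 17.2 and 22.8 with DMSO, 34.0, 25.6 and 25.2 with LPS and 33.8, 36.7 and 43.0 with LPS+Skatole. All LPS and LPS+Skatole libraries were above DMSO, and LPS and LPS+Skatole overlapped by 1 library. The limma difference was 0.99 for LPS+Skatole minus DMSO (SE 0.27, adjusted p = 0.0204), 0.56 for LPS minus DMSO (SE 0.27, adjusted p = 0.210) and 0.43 for LPS+Skatole minus LPS (SE 0.27, adjusted p = 0.392). With libraries scaled to the same median, the last of these was 0.15 (adjusted p = 0.888). The first of these calls was lost without DMSO replicate 1 or 2, or without LPS+Skatole replicate 2 or 3 (adjusted p from 0.0540 to 0.0916).

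The second region called in all 9 libraries, chr5:17853526-17857942, had heights of 25.7, 19.3 and 25.8 with DMSO, 19.2, 25.6 and 23.9 with LPS and 41.5, 28.8 and 42.2 with LPS+Skatole. DMSO and LPS overlapped, and LPS+Skatole lay above both. The log2 difference did not pass, at 0.70 against LPS (SE 0.28, limma adjusted p = 0.166, and 0.42 after scaling to the same median) and 0.66 against DMSO (SE 0.28, limma adjusted p = 0.144). Presence differed at 2 further regions. Region chr5:17876192-17877491, 40797 to 41180 bp before the listed start site, was called in 0 DMSO libraries and in all others, with heights of 17.9, 13.9 and 14.9 with LPS and 21.8, 25.2 and 36.7 with LPS+Skatole. Its local background was 2.27 to 3.47 times the genome background. Region chr5:17837331-17838386, 1827 to 2210 bp before the listed start site, was called with LPS+Skatole alone, at heights of 8.98, 13.3 and 9.60 from 21, 30 and 23 fragments. Regions chr5:17846006-17847833, chr5:17848738-17850122 and chr5:17878930-17880970 were called in 6, 8 and 8 libraries, at heights of 11.3 to 24.6, 10.2 to 22.1 and 11.8 to 45.9. The top percentile of Cd36 was 79.8, 63.3 and 73.6 with DMSO, 93.1, 87.4 and 87.3 with LPS and 93.1, 92.9 and 95.3 with LPS+Skatole. With DMSO these ranks came from different regions: chr5:17878930-17880970, chr5:17853526-17857942 and chr5:17840651-17843769, in libraries 1, 2 and 3. All LPS ranks and those of LPS+Skatole libraries 2 and 3 came from chr5:17840651-17843769. Within that region alone, DMSO ranked at 54.4, 61.0 and 73.6 and LPS+Skatole at 91.6, 92.9 and 95.3, so DMSO stayed below both other groups.

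**Figure D4:**
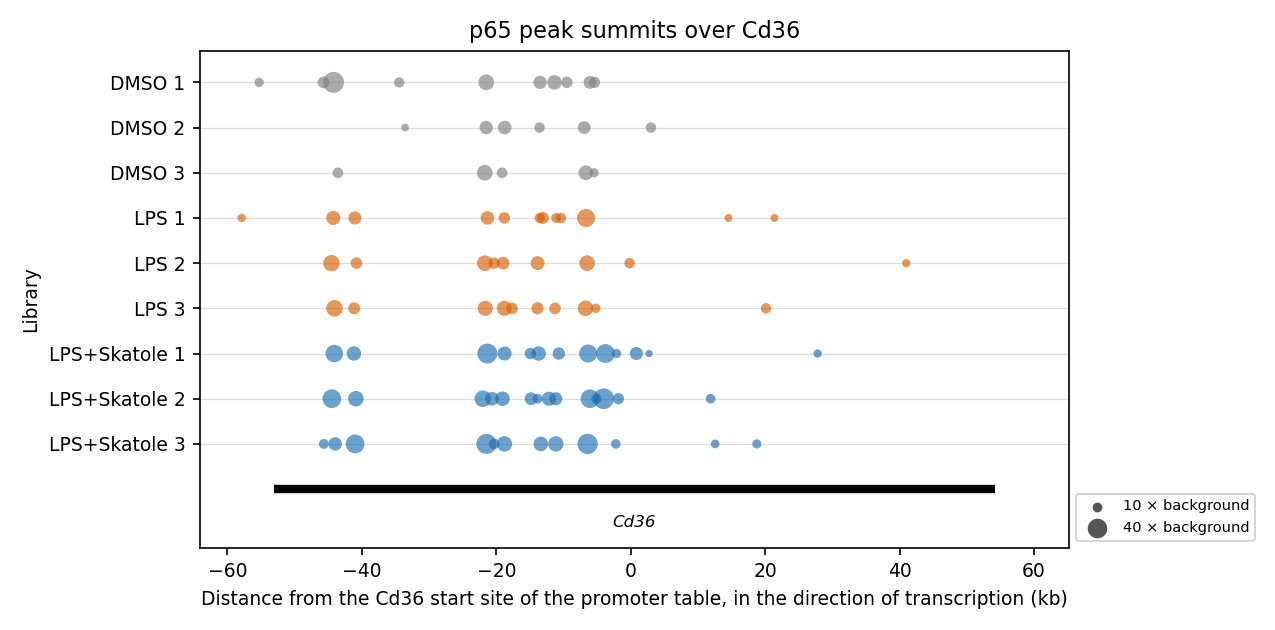
Summits of p65 peaks over Cd36, by distance in kb from the start site listed in the promoter table and by library. Points are peaks with area proportional to height, and the black bar is the gene body. Summits of the regions called in all 9 libraries form columns upstream of the listed start site, and the column 40797 to 41180 bp upstream is absent from the DMSO libraries.

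Over the set, 99 regions were found, 56 of them in a single library (56.6%) and 9 in all 9 libraries (9.09%), against 67.6% and 7.17% of all regions near genes. Of the regions called in at least 6 libraries, 6 belonged to Msr1, 6 to Cd36, 3 to Clec4n, 2 to Clec4d, 2 to Olr1, 1 to Clec4e, 1 to Clec7a and 0 to Marco, with the 2 shared regions counted for both genes. Regions called in all LPS and no DMSO libraries numbered 2 of 67 member regions (Cd36 and Msr1), beside 1.61% of regions near genes, and the reverse held for 0, beside 0.0734%. For LPS+Skatole against LPS, 2 of 89 were gained (Cd36 and Olr1), beside 0.579%, and 1 was lost (Msr1), beside 0.147%. For LPS+Skatole against DMSO, 3 of 78 were gained (2 at Cd36 and the Olr1 start site, close to the separate peak of DMSO library 3), beside 2.33%, and 0 were lost, beside 0.0554%. The counts rest on single libraries: without LPS+Skatole replicate 3, 7 were gained against DMSO and 5 against LPS, and without DMSO replicate 1 or 2 it was 5 or 6 against DMSO. For LPS against DMSO, 4 were gained without DMSO replicate 2 or LPS replicate 3. In LPS+Skatole, 2 were lost against LPS without LPS replicate 3, and 1 against DMSO without DMSO replicate 2. The shares above are for 3 libraries in each group and do not apply to counts with a library left out.

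Heights could be tested for the 9 member regions called in all 9 libraries. For LPS+Skatole minus DMSO, 3 were higher (Clec4d, Clec4n and the first Cd36 region), beside 4.92% of the 13824 regions, and 0 were lower, beside 2.5%. For LPS minus DMSO, 0 were higher, beside 0.709%, and 0 were lower, beside 3.68%. For LPS+Skatole minus LPS, 0 were higher, beside 1.15%, and 0 were lower, beside 0.0434%. At an unadjusted limma p under 0.05, 1 region was higher for LPS minus DMSO, beside 3.35% of the 13824, and 3 for LPS+Skatole minus LPS, beside 18.4%, and 0 were lower in either, beside 19.8% and 0.962%. For LPS+Skatole minus DMSO the same threshold gave 5 higher, beside 12.3%, and 0 lower, beside 9.79%. Fitted on the 6 LPS and LPS+Skatole libraries alone, Clec4d (adjusted p = 0.0246) and Clec4n (adjusted p = 0.0475) passed as higher in LPS+Skatole, 2 of 16 member regions beside 3.74% of 19799. The other pairs fitted alone gave 0 higher for LPS minus DMSO, beside 0.604%, and 3 for LPS+Skatole minus DMSO, beside 3.94%. Scaling the libraries to the same median left the same 3 calls against DMSO but turned the balance over all regions, from 98 higher and 509 lower to 177 and 71 for LPS minus DMSO, from 159 and 6 to 6 and 17 for LPS+Skatole minus LPS and from 680 and 346 to 548 and 613 for LPS+Skatole minus DMSO. Without LPS+Skatole replicate 3, 0 of the 3 calls against DMSO remained, and without DMSO replicate 1 or LPS+Skatole replicate 2 only Clec4d remained. Without LPS+Skatole replicate 1, Clec4n was lost and the Msr1 region chr8:39649336-39650959 gained.

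**Figure D5:**
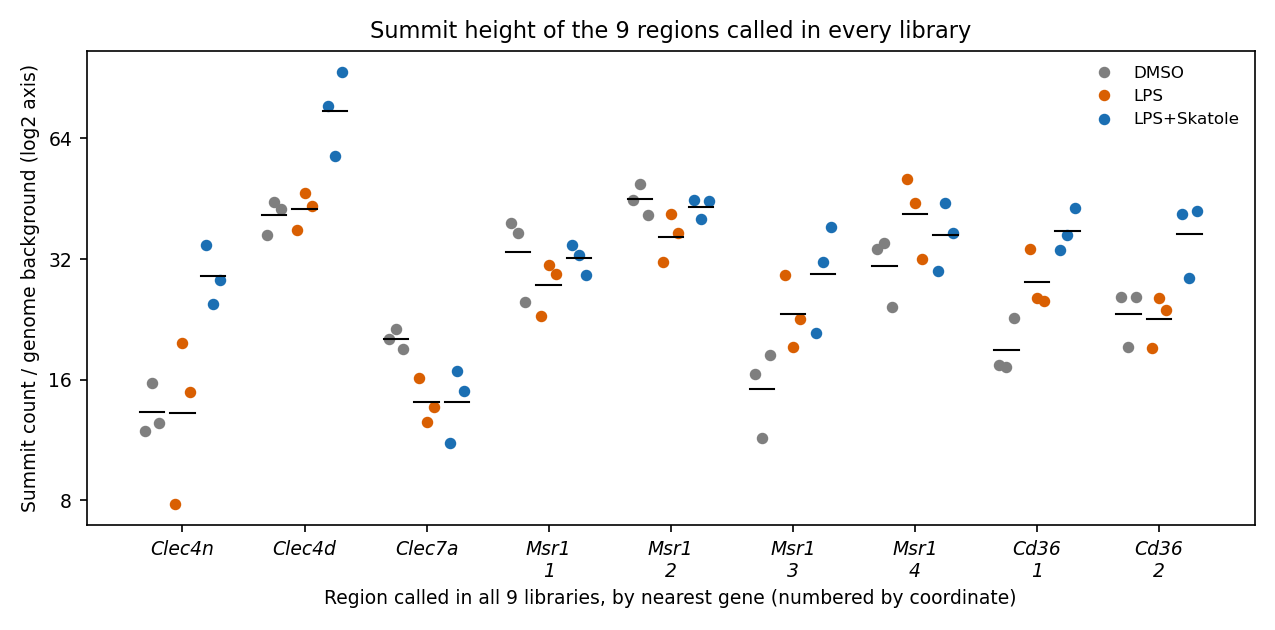
Height of the 9 member regions called in every library, as summit count divided by genome background on a log2 axis. Each point is 1 library, colours give the group and black lines the mean of the log2 values. At Clec4n, Clec4d and the second Cd36 region, all LPS+Skatole points lie above the points of the other groups, and at Clec7a all DMSO points lie above the others.

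Relatives of the 8 genes were counted from 3 lists, which were chosen with earlier results of these data known. Of 25 further C-type lectin genes, 8 (32%) had a peak in all 9 libraries, beside 54.2% of all 21887 protein-coding genes. Peak numbers separated upward without overlap in 1 gene for LPS against DMSO (Mrc2), in 4 for LPS+Skatole against LPS (Clec4a1, Clec4b1, Mrc1 and Thbd) and in 6 for LPS+Skatole against DMSO, beside 13.1%, 9.27% and 26% of all genes with a peak. Of 18 further scavenger receptor genes, 13 (72.2%) had a peak in all 9 libraries, beside the same 54.2%. In the same comparisons, 3 (Scarb1, Scarf2 and Lrp1), 3 (Colec12, Cd5l and Lgals3) and 8 separated upward, beside 13.1%, 9.27% and 26%. Of 18 signalling genes below the receptors, 17 (94.4%) had a peak in all 9 libraries, beside the same 54.2%. Upward, 7, 2 (Fcer1g and Tyrobp) and 14 separated, again beside 13.1%, 9.27% and 26%. No gene of the 3 lists separated downward. The median difference in peak number for LPS minus DMSO was 1.83 for the 8 members, 0.333 for the C-type lectins, 1.33 for the scavenger receptors and 2.5 for the signalling genes, against 0.333 over all protein-coding genes. For LPS+Skatole minus LPS it was 0.667, 0, 1.33 and 0.833, against 0.333, and for LPS+Skatole minus DMSO 2.33, 0.667, 2.5 and 3, against 1. The genes named for counts of 5 or fewer were picked after their values were seen.

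The largest differences in these lists for LPS above DMSO were at Lyn, a Src-family kinase, at Lrp1, an endocytic receptor, and at Src itself. Lyn had 15, 17 and 14 peaks with DMSO, 28, 25 and 24 with LPS and 27, 21 and 27 with LPS+Skatole. Lrp1 had 11, 14 and 8, then 17, 16 and 20, then 22, 21 and 20 peaks in the same order. Both LPS and LPS+Skatole libraries were above DMSO at these genes, without overlap. For LPS+Skatole above LPS, the largest were Colec12, a scavenger receptor with a lectin domain, Lgals3, a galectin, and Cd5l, a secreted protein of macrophages. Colec12 had 10, 11 and 13 peaks with DMSO, 13, 13 and 16 with LPS and 18, 23 and 26 with LPS+Skatole. Lgals3 had 4, 2 and 4, then 5, 6 and 4, then 9, 8 and 10 peaks, and Cd5l had 3, 4 and 2, then 3, 5 and 6, then 8 in each. For LPS+Skatole above DMSO, Colec12, Lrp1 and Lyn led again. The joint exact permutation p-values of these genes adjusted over 19505 genes were all 0.259.

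Of the listed genes, Src was the one whose peak number across the 9 libraries was most like the summed peak number of the 8 members (Pearson r = 0.924), followed by Syk, the kinase below the C-type lectin receptors (r = 0.904), and Vav1, a signalling protein of blood cells (r = 0.884). Src had 3, 2 and 2 peaks with DMSO, 9, 8 and 10 with LPS and 8, 9 and 9 with LPS+Skatole. Syk had 6 in each DMSO library, 12, 12 and 10 with LPS and 13, 11 and 12 with LPS+Skatole. At both, DMSO stood below the other groups, which overlapped each other. The 9 points share library depth and list length and fall by group, so the values of r are descriptions.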

How the data were processed

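p65 CUT&Tag libraries of RAW264.7 cells (3 DMSO, 3 LPS, 3 LPS+Skatole) were grouped by their labels. The authors called peaks per library and deposited a list for each, with a score, a fold (ratio of summit pileup to background) and −log10 p and −log10 q values. The peak caller and its treatment of duplicates are not given in the sources used here. The submitters' processing notes name fastp 0.20.1, HISAT2 2.1.0, StringTie 2.0 and the build mm10, with no role. Every list ended just above a −log10 p of 5.

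Of the deposited peaks, 424 outside chromosomes 1 to 19, X and Y were left out. Summit counts were recovered from the authors' fold, (count + 1)/(background + 1), and the −log10 p of a Poisson tail. They were whole (tolerance 0.001) for at least 99.9975% of peaks in each list. Total reads were not used here, so depth is known only relative to the lowest background of a list, and no interval needing it is given. Overlapping peaks (1 bp or more) of the 9 lists were merged into 235070 regions. Gene positions and promoter sequences came from RefSeq tables of GRCm38.p6. Peak sequences were not read, since no genome was used here.

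Peak numbers and percentiles were compared by exact permutation tests over all genes, heights with limma 3.58.1 (trend, R 4.3.3) over regions called in all 9 libraries, with Benjamini-Hochberg adjustment. Other steps used Python 3.11.15. The scripts were tested on simulated data. Alternatives were equal list length, a −log10 q of 5, a 3 kb window, summits inside the window or within 250 bp, the deposited fold, median scaling, the replicate block and leaving out each library. An 8-fold height minimum and leaving out shared regions were added after the data were seen.

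The members and lists were chosen with earlier results of these data known. All 8 members were named. Regions were named if called in at least 6 libraries, if present in all libraries of a group and none of another, or if highest-ranked for their gene in a group. From the lists, up to 3 genes per comparison and direction with the largest non-overlapping difference were named, and the 3 most like the members' summed peak number.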

Additional observations from a re-analysis of the deposited data

How the results depend on the processing

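Depth limits these results, since the DMSO lists end at a greater height than the others. Of 125 main values under other settings, 93 kept their size and 32 did not, and the cause was not tested. Counts in this section show only how calls on the members moved, since no share over all genes or regions stands beside them. With lists of equal length, members with a joint p under 0.05 went from 3 to 0, those with more peaks in LPS than DMSO from 2 to 1, in LPS+Skatole than DMSO from 2 to 0, and those with fewer peaks from 0 to 1 in LPS+Skatole against LPS and against DMSO. By rank, equal lists gave 1 member for LPS above DMSO, 2 below (Clec7a and Olr1), 1 for LPS+Skatole above LPS and 1 for LPS+Skatole below DMSO (Clec7a). The top percentile difference for LPS+Skatole minus DMSO reversed to -0.495 points for Msr1 and -5.61 for Olr1. For LPS minus DMSO, that of Olr1 reversed to -11.5 points. Without shared regions outside the gene body, 1 member had more peaks in LPS than DMSO, 1 in LPS+Skatole than DMSO, and 1 fewer in LPS+Skatole than LPS. Regions gained in LPS+Skatole against LPS fell from 2 to 1 with equal lists and with regions built from summits. A −log10 q of at least 5 gave 2 members with more peaks in LPS+Skatole than LPS. A 3 kb window gave 1 for LPS above DMSO, 1 for LPS+Skatole above LPS and 1 for LPS+Skatole above DMSO. Ranking by the deposited fold gave 1 member for LPS+Skatole above LPS, and fitting it in place of height left 2 of 3 height calls against DMSO, without Clec4d. The added 8-fold minimum gave 1 member with a joint p under 0.05, 1 for LPS above DMSO and 2 for LPS+Skatole above LPS. Asking for at least 2 of 3 against 0 of 3 libraries gave 6, 6 and 8 regions gained in LPS against DMSO, LPS+Skatole against LPS and LPS+Skatole against DMSO, and 2 and 1 lost in the last pair of comparisons. Heights fitted on the 6 libraries of the pair gave 2 regions higher in LPS+Skatole than LPS.

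Replicate numbers did not pair the libraries: the 9 correlations of same-numbered libraries ran from -0.00963 to 0.0141, 0 were over 0.1, and 2 of 9 were best with their own number. The replicate block gave 1 member with a joint p under 0.05, 3 with more and 1 with fewer peaks in LPS+Skatole than LPS, 1 of lower rank there, and the same 3 height calls against DMSO.

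Leaving out each library in turn gave 0 to 3 members with a joint p under 0.05. Members with more peaks were 2 to 3 for LPS against DMSO, 0 to 2 for LPS+Skatole against LPS and 2 to 4 for LPS+Skatole against DMSO, with 0 to 1 fewer in LPS+Skatole than LPS. By rank, 2 to 3 members were higher and 0 to 1 lower in LPS+Skatole than LPS, and 4 to 5 higher than in DMSO. Gained regions were 2 to 4, 2 to 5 and 3 to 7, and lost regions 1 to 2 against LPS and 0 to 1 against DMSO. Height calls were 0 to 3 for LPS+Skatole above DMSO, not always of the same regions, and 0 to 1 above LPS.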

Other observations

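The background on which peaks were called differed between the genes. At Clec4d, 100% of 43 peaks had a local background above the genome background (by more than 0.5%), with a median ratio of 2.41, at Cd36 it was 89.0% of 91 peaks (median 2.08) and at Clec4e 81.3% of 16 (median 2.63). At Msr1 it was 53.5% of 101 peaks (median 1.15). At Clec4n it was 22.2% of 45 peaks, at Marco 20% of 5, at Clec7a 4.76% of 21 and at Olr1 2.17% of 46. The median was 1 at Clec4n, Marco, Clec7a and Olr1, as over all 536143 peaks (40.7%). The part of the local background in the ranks of these peaks was not tested.

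Among C-type lectin genes outside the set, Mrc1, for the mannose receptor CD206, had 1, 0 and 1 peaks with DMSO, 1, 1 and 0 with LPS and 3, 4 and 4 with LPS+Skatole. LPS+Skatole did not overlap the other groups (joint exact permutation p = 0.0357, adjusted p = 0.259 over 19505 genes). It was chosen after its values were seen.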
